A study of Homo sapiens with 12 samples.

Results

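The nuclear genes of oxidative phosphorylation were described here across all 12 RNA sequencing libraries, with complexes I to V taken separately. The members were all gene symbols of the count table that begin as the subunit names of complex I (NDUFA, NDUFB, NDUFC, NDUFS, NDUFV), complex II (SDHA to SDHD), complex III (UQCR, CYC1), complex IV (COX4 to COX8) and complex V (ATP5) do, and 94 of 26485 genes matched. Of these, 85 were subunit genes, namely 36 for complex I, 4 for complex II, 10 for complex III, 19 for complex IV and 16 for complex V, with NDUFA4 and NDUFA4L2 counted to complex IV, where the protein is now placed. The other 9 were pseudogenes, read-through transcripts, antisense genes and genes named after complex V that encode no subunit. The study traced how HEL cells, an established human acute myeloid leukemia line of erythroid and megakaryocytic character, regrew after chemotherapy with or without a hypomethylating agent. All cells were 1 line carrying lineage barcodes. NT cells (n = 2) received 0.1 µM dimethyl sulfoxide. Doxo cells (n = 3) received 1.8 µM of the anthracycline doxorubicin, Doxo+Cyta cells (n = 3) the same with 6 µM of the nucleoside analog cytarabine, and Doxo+Cyta+DAC cells (n = 4) both drugs with 0.1 µM of the hypomethylating agent decitabine. Exposure lasted about 72 h, dead cells were removed, and the survivors were grown for about 30 days without drug, so the treated libraries are regrown populations and not cells under drug. The labels call the replicates biological replicates of this line and name no separate donors, so p-values measure the spread between cultures of 1 line.

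Oxidative phosphorylation passes electrons from NADH and succinate through complexes I, II, III and IV of the inner mitochondrial membrane to oxygen, and complex V (ATP synthase) uses the resulting proton gradient to make ATP. Most subunits are encoded in the nucleus, each complex has catalytic core subunits surrounded by accessory subunits needed for assembly and stability, and several accessory subunits exist as tissue-specific isoforms. Leukemia cells that survive chemotherapy have often been described as relying on this pathway. Subunits encoded by mitochondrial DNA were not analysed here, so every value concerns nuclear transcripts, and neither protein nor respiration was measured.

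Sequence just upstream of 4 subunit genes is given from RefSeq (GRCh38.p14) to show the promoters of the members on which the results turn: NDUFS6 and ATP5G1, the members of complexes I and V with the largest difference between Doxo+Cyta+DAC and Doxo, NDUFS4, which moved the other way, and NDUFB4, which holds a palindromic motif. They lie at chr5:1801157-1801381 (NDUFS6), chr5:53560389-53560634 (NDUFS4), chr3:120596086-120596280 (NDUFB4) and chr17:48892537-48892785 (ATP5G1, now ATP5MC1), all on the plus strand and outside the exons of the count annotation. Capitals mark matches on either strand to the NRF1 motif GCGCATGCG, the site of nuclear respiratory factor 1, an activator of respiratory genes. In NDUFB4 the matches on both strands overlap.
NDUFS6: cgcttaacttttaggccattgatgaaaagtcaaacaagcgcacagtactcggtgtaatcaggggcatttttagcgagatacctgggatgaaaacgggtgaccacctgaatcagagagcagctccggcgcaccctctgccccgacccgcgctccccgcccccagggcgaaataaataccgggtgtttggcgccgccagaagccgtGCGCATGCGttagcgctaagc
NDUFS4: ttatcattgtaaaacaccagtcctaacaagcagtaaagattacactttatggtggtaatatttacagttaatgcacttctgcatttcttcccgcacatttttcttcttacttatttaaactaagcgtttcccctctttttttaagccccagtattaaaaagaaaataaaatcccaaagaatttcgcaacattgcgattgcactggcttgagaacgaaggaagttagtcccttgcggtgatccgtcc
NDUFB4: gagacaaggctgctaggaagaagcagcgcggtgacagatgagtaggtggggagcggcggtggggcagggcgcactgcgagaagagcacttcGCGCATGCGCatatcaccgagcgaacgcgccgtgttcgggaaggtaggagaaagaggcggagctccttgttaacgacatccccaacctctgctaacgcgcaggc
ATP5G1: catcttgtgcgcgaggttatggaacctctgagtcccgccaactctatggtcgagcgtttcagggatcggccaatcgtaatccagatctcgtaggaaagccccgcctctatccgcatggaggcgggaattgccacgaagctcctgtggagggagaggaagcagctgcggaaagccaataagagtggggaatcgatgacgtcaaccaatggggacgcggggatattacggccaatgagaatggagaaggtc
The base composition of these stretches differed, with 57.3% G and C for NDUFS6, 37.0% for NDUFS4, 62.1% for NDUFB4 and 55.8% for ATP5G1. Searched on both strands of the 250 bases before the start, the NRF1 motif was in 9 of 64 subunit promoters that matched RefSeq by symbol (14.1%) and in 1.78% of 27305 promoters. Lengthened by 1 base to a palindrome, it was in 3 of 64 (4.69%; ATP5C1, SDHD, NDUFB4) and in 1.13% of all. The ETS motif CCGGAAGT, bound by the family of GABPA, was in 9 of 64 (14.1%) against 3.64% of all, and the YY1 motif AAGATGGCG was in 1 of 64 (1.56%; ATP5J) against 0.641%. A match to these letters is a description and not evidence of binding, and neither the NRF1, the ETS nor the YY1 motif contains one of the others.

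Libraries held 12763582 to 19106235 assigned fragments, so 3 counts, taken as the limit of detection, correspond to 0.154 to 0.238 CPM (counts scaled to library size). Of the 94 members, 82 passed the filter on low counts and were tested among 14164 genes, 77 of them subunit genes (36, 4, 9, 13 and 15 for complexes I to V). All 10 HEL markers were detected, with summed levels of 7909 to 9155 CPM in NT, 9130 to 9871 in Doxo, 9632 to 10612 in Doxo+Cyta and 6206 to 8389 in Doxo+Cyta+DAC, while CD3D, CD3E, CD3G, MS4A1, EPCAM, KRT19 and CDH1 had at most 2 counts in any library and CD2 and CD79A had 290 to 883 and 13 to 103 counts. HBG2 alone had 3124 to 6411 CPM. Of the 10 HEL markers, 0 were higher and 3 lower in Doxo+Cyta+DAC than in NT (24.9% and 23.7% of all genes). Relative to Doxo+Cyta+DAC, 5 were higher and 0 lower in Doxo (30.4% and 29.1% of all genes). In Doxo+Cyta, 7 were higher and 0 lower (30.5% and 29.8%). The part of the lower marker sum of Doxo+Cyta+DAC in the results was not tested, and bulk RNA cannot tell fewer cells with a transcript from less transcript per cell. One library stood apart before any test: Doxo+Cyta replicate 20 had the highest level of its group for 73 of 77 subunit genes (94.8%), against 45.3% of all tested genes. Results that rest on it are therefore given with and without it.

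Averaged over the 77 subunit genes, each expressed as the deviation of its log2 CPM from its own mean over groups, the NT libraries stood at -0.03 and -0.19 and the Doxo libraries at -0.13, -0.19 and -0.13. Doxo+Cyta replicates 19 and 22 stood at -0.17 and -0.16 and replicate 20 at 0.29, and the Doxo+Cyta+DAC libraries at 0.30, 0.31, 0.22 and 0.25. Every Doxo+Cyta+DAC library was thus above every NT and Doxo library and above 2 of the 3 Doxo+Cyta libraries. Replicate 20 was within the range of the Doxo+Cyta+DAC libraries in this average. The same replicate had averages of 0.29 for complex I, 0.05 for complex II, 0.32 for complex III, 0.34 for complex IV and 0.30 for complex V, the smallest of which was that of complex II. These averages describe the libraries and were not tested.

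Relapses after Doxo+Cyta+DAC had higher transcript levels of many subunits than NT cells, mostly those of complexes I and V. Of 77 subunit genes, 40 were higher (51.9%) and 1 was lower, NDUFS4, in edgeR's quasi-likelihood test at an adjusted p under 0.05. Among all 14164 genes, 24.9% were called higher and 23.7% lower in the same test, 48.7% in either direction. The median log2 fold change was 0.40 for the subunits and 0.02 for all genes. Libraries of the 2 groups did not overlap for 56 subunit genes in the higher direction and 3 in the lower, against 34.2% and 32.9% of all genes. This count depended on the NT libraries: 25 subunits were higher and 0 lower without NT replicate 1, and 9 higher and 1 lower without NT replicate 2, with medians of 0.47 and 0.33. Of all 14164 genes, 2187 were higher and 2284 lower without NT replicate 1, and 2254 and 2327 without NT replicate 2. Without NT replicate 2, the share called higher was thus smaller among the subunits than among all genes.

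Against the other 2 relapse groups the direction was alike. In Doxo relapses, 48 of 77 subunits were lower than in Doxo+Cyta+DAC (62.3%) and 3 were higher, with a median log2 fold change of -0.45, where 29.1% of all genes were lower and 30.4% higher (59.5% in all). Libraries of these groups did not overlap for 57 subunits in the lower direction and 5 in the higher (29.7% and 30.2% of all genes). In Doxo+Cyta relapses, 36 were lower (46.8%) and 7 higher, with a median of -0.24, where 29.8% of all genes were lower and 30.5% higher (60.3% in all). Here libraries did not overlap for 28 subunits in the lower direction and 7 in the higher (29% and 28.2% of all genes). Leaving out Doxo+Cyta replicate 20 moved this median to -0.46 and the calls to 49 lower and 5 higher. Of all 14164 genes, 4405 were then lower and 4415 higher. Over all omissions of 1 library, the calls among the 82 tested members ran from 30 to 56 in Doxo+Cyta against Doxo+Cyta+DAC (45 with all libraries). In Doxo against Doxo+Cyta+DAC they ran from 45 to 61 (53 with all libraries). These 3 comparisons share the Doxo+Cyta+DAC libraries and are not independent of one another. All 4 Doxo+Cyta+DAC libraries exceeded all other 8 for 28 of 77 subunits (36.4%; 21.5% of all genes), and the other 7 without replicate 20 for 51 (66.2%; 23.8% of all genes). They fell below the other 8 for 2 subunits, of which 1 was NDUFS4 (20.1% of all genes), and for the same 2 without replicate 20 (22.9% of all genes).

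**Figure D1:**
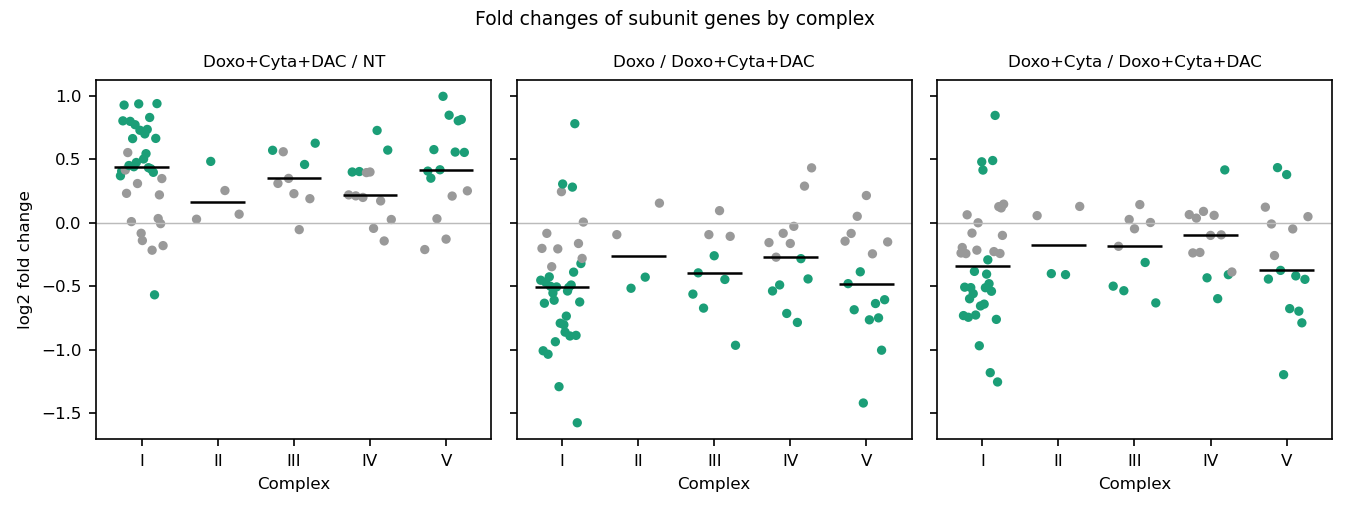
Log2 fold change (vertical axis) of each tested subunit gene by complex in the 3 comparisons with Doxo+Cyta+DAC, with green points for an adjusted p under 0.05, grey points otherwise and black lines for medians. Medians against NT are 0.44, 0.16, 0.35, 0.22 and 0.42 for complexes I to V, and those of Doxo against Doxo+Cyta+DAC are -0.50, -0.26, -0.39, -0.27 and -0.48.

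By complex, the share of tested subunits higher in Doxo+Cyta+DAC than in NT was 22 of 36 for complex I, 1 of 4 for complex II, 3 of 9 for complex III, 4 of 13 for complex IV and 10 of 15 for complex V. These shares were 61.1% and 66.7% for complexes I and V, and 25%, 33.3% and 30.8% for complexes II, III and IV, the latter near the 24.9% of all genes. In Doxo relative to Doxo+Cyta+DAC, 25, 2, 6, 6 and 9 subunits of complexes I to V were lower, and the 3 higher ones were all of complex I. These lower shares were 69.4%, 50%, 66.7%, 46.2% and 60%, against 29.1% of all genes. In Doxo+Cyta the counts were 19, 2, 4, 3 and 8 lower and 4, 0, 0, 1 and 2 higher, with medians of -0.34, -0.17, -0.19, -0.10 and -0.37. The lower shares here were 52.8%, 50%, 44.4%, 23.1% and 53.3%, against 29.8% of all genes, so that of complex IV was under the share of all genes. Without replicate 20 the medians were -0.49, -0.23, -0.35, -0.32 and -0.52. Differences between complexes were not tested.

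In complex I, accessory subunits made up most of the calls. Of 29 accessory subunits, 20 were higher and 1 lower in Doxo+Cyta+DAC than in NT (median 0.50), and of 7 core subunits, 2 were higher (median 0.22), NDUFS1 and NDUFS3. The higher shares were 69.0% of accessory and 28.6% of core subunits, the latter near the 24.9% of all genes. Relative to Doxo+Cyta+DAC, 21 accessory subunits were lower and 2 higher in Doxo, and 18 were lower and 3 higher in Doxo+Cyta, while 4 core subunits were lower and 1 higher in Doxo, and 1 was lower and 1 higher in Doxo+Cyta. The lower shares were 72.4% and 62.1% of accessory and 57.1% and 14.3% of core subunits in Doxo and Doxo+Cyta. Of all genes, 29.1% and 29.8% were lower. Mean levels per kilobase of exon ranged from 3.82 CPM per kb for NDUFC2 to 369 for NDUFB9, with a median of 68.8.

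NDUFS6, an accessory subunit of the matrix arm, had 59.5 and 49.4 CPM in NT, 43.5, 29.2 and 32.6 in Doxo, 36.9, 61.2 and 33.4 in Doxo+Cyta (replicates 19, 20 and 22), and 111, 108, 105 and 93.8 in Doxo+Cyta+DAC. All 4 Doxo+Cyta+DAC libraries were above the other 8, and the highest of those was replicate 20. The log2 fold change over NT was 0.94 (SE 0.22, adjusted p of 0.00338), a 1.92-fold higher level. Relative to Doxo+Cyta+DAC, NDUFS6 was lower in Doxo (-1.57, SE 0.20, adjusted p of 1.62e-05) and Doxo+Cyta (-1.25, SE 0.20, adjusted p of 8.6e-05). The call against NT was lost without NT replicate 2.

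NDUFB2, an accessory subunit of the membrane arm, had 20.8 and 16.6 CPM in NT, 18.9, 12.2 and 12.9 in Doxo, 16.0, 25.1 and 13.9 in Doxo+Cyta, and 37.6, 34.7, 35.5 and 35.3 in Doxo+Cyta+DAC. The Doxo+Cyta+DAC libraries again lay above all others without overlap. Its log2 fold change was 0.94 over NT (SE 0.23, adjusted p of 0.00415, lost without NT replicate 2), and relative to Doxo+Cyta+DAC -1.29 in Doxo (SE 0.20) and -0.97 in Doxo+Cyta (SE 0.20). The antisense gene NDUFB2-AS1 covers 28.3% of the NDUFB2 exons, and because counting ignored strand, reads of the pair in that stretch cannot be told apart.

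NDUFC2, another membrane-arm subunit, had 8.44 and 8.28 CPM in NT, 7.82, 6.81 and 9.40 in Doxo, 7.61, 7.81 and 4.28 in Doxo+Cyta, and 14.6, 14.6, 13.0 and 17.3 in Doxo+Cyta+DAC. In Doxo+Cyta, replicate 22 was the lowest, and the Doxo+Cyta+DAC libraries did not overlap with the rest. Its log2 fold change was 0.83 over NT (SE 0.23, adjusted p of 0.00800) and -1.18 for Doxo+Cyta against Doxo+Cyta+DAC (SE 0.20, adjusted p of 0.000191). Exons of other genes cover 32.2% of its exons, so its level is a lower estimate.

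NDUFS4, an accessory subunit needed for a complete NADH-oxidising module, went the other way. It had 52.0 and 40.5 CPM in NT, 44.7, 54.2 and 61.9 in Doxo, 47.9, 63.9 and 56.6 in Doxo+Cyta, and 31.1, 34.9, 25.7 and 33.4 in Doxo+Cyta+DAC. All Doxo+Cyta+DAC libraries were below all others. It was lower than in NT by a log2 fold change of -0.57 (SE 0.17, adjusted p of 0.0132), and relative to Doxo+Cyta+DAC it was higher in Doxo (0.78, SE 0.15, adjusted p of 0.000557) and in Doxo+Cyta (0.84, SE 0.15, adjusted p of 0.000274). The call against NT was lost without NT replicate 1 (-0.37, adjusted p of 0.208).

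NDUFB5, a membrane-arm subunit, was also higher in Doxo (0.31, SE 0.11, adjusted p of 0.0321) and in Doxo+Cyta (0.41, SE 0.11, adjusted p of 0.00596) than in Doxo+Cyta+DAC, with 70.7, 80.8, 64.5 and 75.2 CPM in Doxo+Cyta+DAC and 76.6 to 102 CPM in those groups. NDUFB4, the complex I gene with the palindromic NRF1 motif printed above, was higher in Doxo+Cyta than in Doxo+Cyta+DAC by 0.48 (SE 0.11, adjusted p of 0.00156). NDUFS4, NDUFB5 and NDUFB4 kept these calls in Doxo+Cyta without replicate 20.

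**Figure D2:**
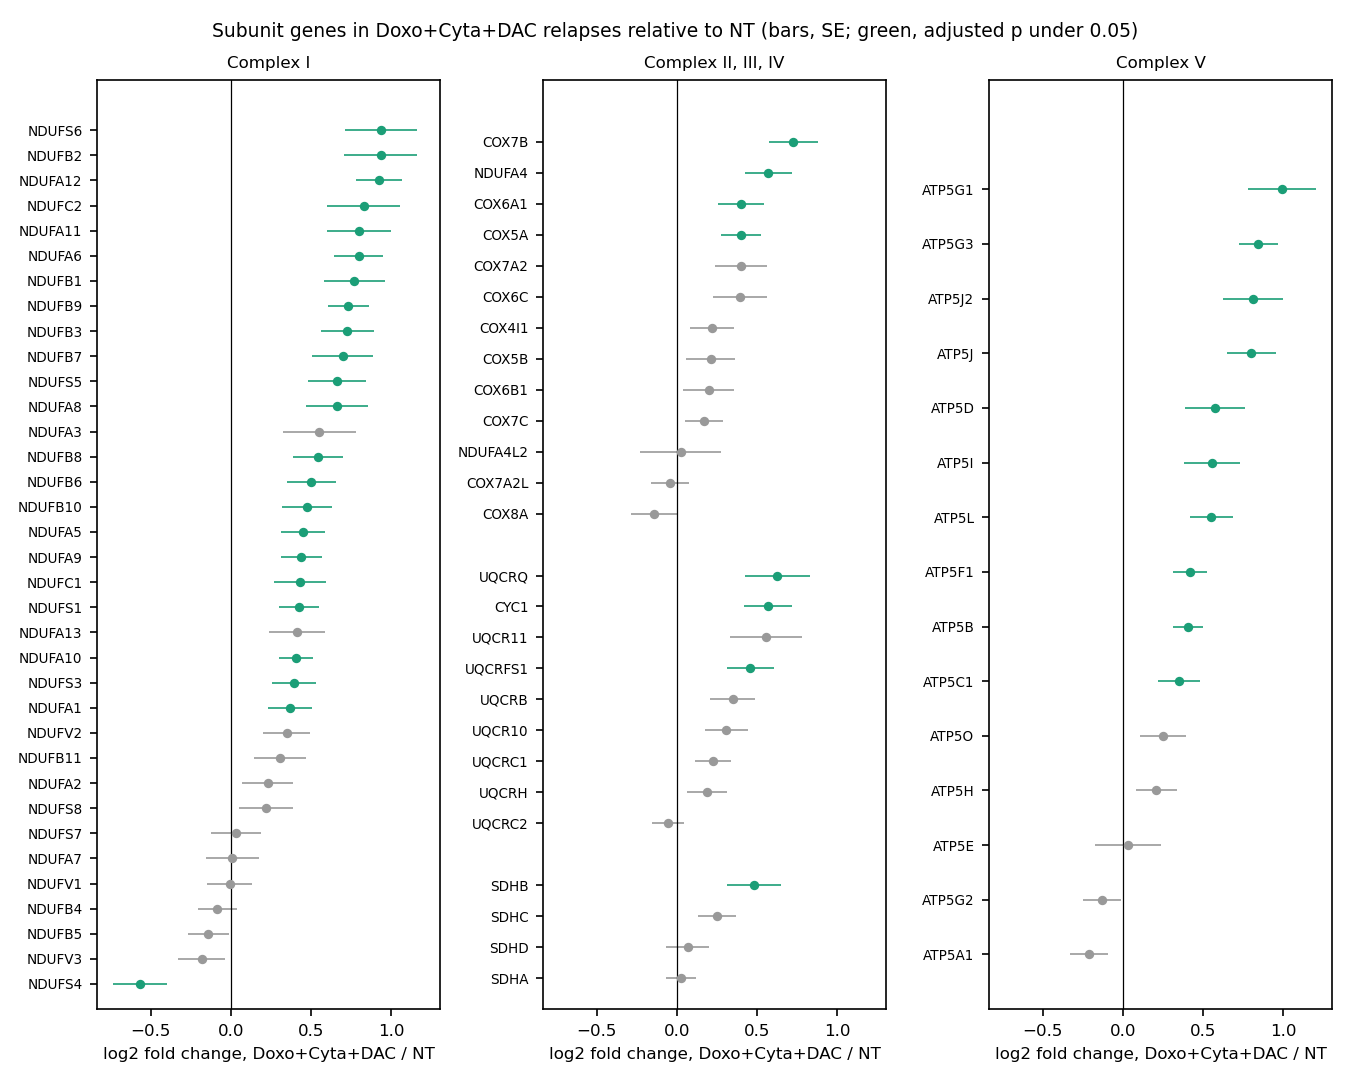
Log2 fold change of the tested subunit genes other than 1 gene not shown, in Doxo+Cyta+DAC relative to NT (horizontal axis) with its standard error, by complex, green where the adjusted p was under 0.05. NDUFS6 and ATP5G1 lead their complexes at 0.94 and 0.99, and NDUFS4 at -0.57 is the only subunit called lower.

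In complex II, which oxidises succinate and belongs to the tricarboxylic acid cycle as well, the catalytic flavoprotein SDHA had 197 and 177 CPM in NT, 169, 181 and 186 in Doxo, 198, 206 and 191 in Doxo+Cyta, and 197, 192, 190 and 183 in Doxo+Cyta+DAC. The groups overlapped, and the log2 fold change over NT was 0.03 (SE 0.09, adjusted p of 0.827), with a sign that turned under other scalings. SDHB, the iron-sulfur subunit, had 110 and 87.7 CPM in NT, 101, 90.2 and 99.3 in Doxo, 104, 122 and 87.9 in Doxo+Cyta, and 175, 133, 121 and 123 in Doxo+Cyta+DAC. All Doxo+Cyta+DAC libraries exceeded NT and Doxo, 1 of them (replicate 32) was below Doxo+Cyta replicate 20, and replicate 30 was the highest. SDHB was higher than in NT by 0.48 (SE 0.17, adjusted p of 0.0287, lost without NT replicate 2) and was lower in Doxo (-0.52, SE 0.15, adjusted p of 0.00810) and in Doxo+Cyta (-0.40, SE 0.15, adjusted p of 0.0295).

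The membrane anchors of complex II differed from each other. SDHC had 77.3 and 74.5 CPM in NT, 74.5, 62.0 and 65.4 in Doxo, 59.98, 76.2 and 68.5 in Doxo+Cyta, and 87.0, 88.9, 93.6 and 92.6 in Doxo+Cyta+DAC, which were the 4 highest libraries. It was lower in Doxo (-0.43, SE 0.11, adjusted p of 0.00313) and in Doxo+Cyta (-0.41, SE 0.11, adjusted p of 0.00405) than in Doxo+Cyta+DAC, and its difference from NT, 0.25 (SE 0.12, adjusted p of 0.0933), did not pass. SDHD had 112 and 106 CPM in NT, 107, 133 and 141 in Doxo, 128, 107 and 139 in Doxo+Cyta, and 107, 126, 109 and 114 in Doxo+Cyta+DAC, and these ranges overlapped (0.07 over NT, SE 0.14, adjusted p of 0.706). Per kilobase, complex II levels ran from 26.2 CPM for SDHC to 95.4 for SDHB.

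In complex III, the cytochrome bc1 complex, all 4 Doxo+Cyta+DAC libraries were above the other 8 for 2 of 9 subunits (22.2%), near the 21.5% of all genes. Without replicate 20 they were above the other 7 for 5 of 9 subunits (55.6%), against 23.8% of all genes. The small subunit UQCRQ had 36.8 and 30.6 CPM in NT, 27.4, 25.7 and 27.0 in Doxo, 27.6, 47.6 and 25.7 in Doxo+Cyta, and 53.4, 52.3, 48.2 and 54.4 in Doxo+Cyta+DAC. Replicate 20 reached almost the lowest Doxo+Cyta+DAC library. UQCRQ was higher than in NT by 0.63 (SE 0.20, adjusted p of 0.0201, lost without either NT library) and lower in Doxo (-0.96, SE 0.18, adjusted p of 0.000407) and Doxo+Cyta (-0.63, SE 0.18, adjusted p of 0.00710) than in Doxo+Cyta+DAC.

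CYC1, the cytochrome c1 subunit that hands electrons to cytochrome c, had 224 and 215 CPM in NT, 250, 201 and 213 in Doxo, 199, 291 and 202 in Doxo+Cyta, and 322, 334, 345 and 303 in Doxo+Cyta+DAC. It was higher than in NT by 0.57 (SE 0.15, adjusted p of 0.00634, lost without NT replicate 2) and lower in Doxo (-0.56, SE 0.13) and Doxo+Cyta (-0.50, SE 0.13) than in Doxo+Cyta+DAC. UQCR11, a small subunit, had 72.5 and 66.5 CPM in NT, 77.7, 56.7 and 58.5 in Doxo, 53.1, 102 and 57.4 in Doxo+Cyta, and 107, 108, 87.7 and 106 in Doxo+Cyta+DAC, where replicate 32 lay below the other 3 and below replicate 20. It was lower in Doxo (-0.67, SE 0.20, adjusted p of 0.00924) and in Doxo+Cyta (-0.53, SE 0.20, adjusted p of 0.0290), and its difference from NT was 0.56 (SE 0.22, adjusted p of 0.0525). The Rieske iron-sulfur protein gene UQCRFS1 was the other subunit called higher than in NT (0.46, SE 0.15, adjusted p of 0.0179), and UQCRC2, a core protein without a redox centre, stood at -0.05 (SE 0.10, adjusted p of 0.683). Per kilobase, complex III levels ran from 23.04 CPM for UQCRQ to 560 for UQCRH.

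Complex IV, cytochrome c oxidase, had 4 subunits higher in Doxo+Cyta+DAC than in NT: COX7B, NDUFA4, COX6A1 and COX5A. COX7B had 80.2 and 66.3 CPM in NT, 68.9, 69.4 and 73.0 in Doxo, 67.8, 101 and 72.0 in Doxo+Cyta, and 120, 130, 113 and 123 in Doxo+Cyta+DAC. It was the only complex IV gene whose 4 Doxo+Cyta+DAC libraries were above the other 8 (1 of 13, 7.69%, against 21.5% of all genes). Without replicate 20, 8 of 13 complex IV genes were above the other 7 (61.5%, against 23.8% of all genes). The log2 fold change of COX7B was 0.73 over NT (SE 0.15, adjusted p of 0.00149), and relative to Doxo+Cyta+DAC -0.78 in Doxo (SE 0.13) and -0.60 in Doxo+Cyta (SE 0.13). NDUFA4 had 79.7 and 76.5 CPM in NT, 79.4, 85.0 and 92.0 in Doxo, 75.4, 110 and 77.1 in Doxo+Cyta, and 114, 122, 110 and 119 in Doxo+Cyta+DAC, with replicate 20 at the lower edge of the last group. It was higher than in NT by 0.57 (SE 0.15, adjusted p of 0.00536, lost without NT replicate 2).

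COX6C had 175 and 154 CPM in NT, 148, 122 and 125 in Doxo, 138, 211 and 131 in Doxo+Cyta, and 208, 232, 204 and 221 in Doxo+Cyta+DAC. It was lower in Doxo (-0.71, SE 0.15, adjusted p of 0.000972) and in Doxo+Cyta (-0.43, SE 0.15, adjusted p of 0.0206), and it stood 0.39 above NT (SE 0.17, adjusted p of 0.0669). COX8A, a small subunit at the membrane, had 185 and 163 CPM in NT, 184, 191 and 202 in Doxo, 177, 265 and 189 in Doxo+Cyta, and 142, 159, 168 and 161 in Doxo+Cyta+DAC, and its highest library was replicate 20. It was called higher in Doxo+Cyta than in Doxo+Cyta+DAC (0.42, SE 0.13, adjusted p of 0.0117), but not without replicate 20 (0.22, adjusted p of 0.0573) nor after correction for exon length and base composition (0.05, adjusted p of 0.662). Per kilobase, complex IV levels ran from 1.55 CPM for NDUFA4L2 to 456 for COX7C.

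The tissue-specific isoforms of complex IV were near or under the limit of detection, and the ubiquitous ones carried the transcript. COX6A2 of heart and muscle and COX7B2 and COX8C of testis had 0 counts in all 12 libraries, COX4I2 at most 2, COX7A1 at most 3 and COX6B2 at most 7, and the hinge-protein copy UQCRHL of complex III at most 8. Their counterparts were abundant: COX4I1 had 205 and 184 CPM in NT and 220 to 232 in Doxo+Cyta+DAC (0.22, SE 0.14, adjusted p of 0.211), and COX6B1 210 and 177 in NT and 205 to 236 in Doxo+Cyta+DAC (0.20, SE 0.16, adjusted p of 0.321). COX6A1 was called higher than in NT (0.40, SE 0.14, adjusted p of 0.0321), as 218 to 242 CPM against 186 and 166. COX7A2 stood 0.40 above NT (SE 0.16, adjusted p of 0.0546) while COX7A2L, a supercomplex factor, stood at -0.04 (SE 0.12, adjusted p of 0.783), and COX7A2 held 60.4% ± 2.96 (SD, n = 2) of the summed CPM per kb of the COX7A genes in NT and 67.6% ± 2.13 (SD, n = 4) in Doxo+Cyta+DAC. UQCRH stood 0.19 above NT (SE 0.13, adjusted p of 0.234). NDUFA4 held 94.8% to 97.9% of the summed level of the NDUFA4 pair in every library. Its hypoxia-responsive paralog NDUFA4L2 had 1.80 and 1.73 CPM in NT, 2.51, 2.62 and 2.15 in Doxo, 1.36, 1.67 and 1.10 in Doxo+Cyta, and 1.96, 1.86, 1.84 and 1.505 in Doxo+Cyta+DAC, so that Doxo and Doxo+Cyta did not overlap (-0.82, SE 0.24, adjusted p of 0.0814), a comparison in which 10.4% of all genes had non-overlapping libraries in that direction.

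In complex V, 7 of 10 subunits of the membrane part and stalks (Fo) were higher in Doxo+Cyta+DAC than in NT (median 0.55), as were 3 of 5 subunits of the catalytic head (F1; median 0.35). In Doxo, 7 Fo and 2 F1 subunits were lower than in Doxo+Cyta+DAC, and in Doxo+Cyta 7 Fo and 1 F1 subunits were lower and 1 of each was higher. Of all genes, 24.9% were higher in Doxo+Cyta+DAC than in NT, and 29.1% were lower in Doxo and 29.8% in Doxo+Cyta than in Doxo+Cyta+DAC. Of the catalytic pair, ATP5B (beta) had 1367 and 1280.3 CPM in NT and 1688 to 1816 in Doxo+Cyta+DAC (0.41, SE 0.09, adjusted p of 0.00282), whereas ATP5A1 (alpha) had 995 and 916 in NT and 697 to 975 in Doxo+Cyta+DAC (-0.21, SE 0.12, adjusted p of 0.159). ATP5B had the highest level of all subunits, 764 CPM per kb, and ATP5E (epsilon) the lowest of complex V, 15.3 CPM per kb. Exons of SLMO2-ATP5E cover 66.3% of ATP5E, which had 5.08 to 9.67 CPM, and its call as higher in Doxo+Cyta than in Doxo+Cyta+DAC (0.43, SE 0.18, adjusted p of 0.0496) was lost without replicate 20 (0.31, adjusted p of 0.169).

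Subunit c, of which the rotor ring of ATP synthase is built, is made from 3 genes that encode the same mature protein behind different import peptides, and these genes moved unequally. ATP5G1 had 84.4 and 74.5 CPM in NT, 71.7, 51.3 and 55.0 in Doxo, 53.3, 97.4 and 57.0 in Doxo+Cyta, and 163, 157, 165 and 148 in Doxo+Cyta+DAC. ATP5G3 had 226 and 213 in NT, 242, 220 and 235 in Doxo, 218, 291 and 232 in Doxo+Cyta, and 388, 373, 408 and 410 in Doxo+Cyta+DAC. For both genes the Doxo+Cyta+DAC libraries lay above all others, replicate 20 included. ATP5G2 had 569 and 504 in NT, 522, 597 and 589 in Doxo, 582, 758 and 575 in Doxo+Cyta, and 481, 510, 494 and 478 in Doxo+Cyta+DAC, the range of which lay below those of Doxo and Doxo+Cyta and overlapped that of NT.

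ATP5G1 was 1.99-fold higher in Doxo+Cyta+DAC than in NT (log2 0.99, SE 0.21, adjusted p of 0.00172) and ATP5G3 1.80-fold (log2 0.85, SE 0.12, adjusted p of 8.66e-05), while ATP5G2 stood at -0.13 (SE 0.12, adjusted p of 0.393). Relative to Doxo+Cyta+DAC, ATP5G1 changed by -1.42 in Doxo (SE 0.19, adjusted p of 2.45e-05) and -1.19 in Doxo+Cyta (SE 0.19), ATP5G3 by -0.76 in Doxo (SE 0.10) and -0.68 in Doxo+Cyta (SE 0.10), and ATP5G2 by 0.21 in Doxo (SE 0.11, adjusted p of 0.0945) and 0.38 in Doxo+Cyta (SE 0.11, adjusted p of 0.00651). As a share of the summed CPM per kb of the 3 genes, ATP5G1 held 20.4% ± 0.13 (SD, n = 2) in NT, 15.3% ± 3.15 (n = 3) in Doxo, 15.6% ± 2.39 (n = 3) in Doxo+Cyta and 33.1% ± 1.03 (n = 4) in Doxo+Cyta+DAC. ATP5G2 held 69.1% ± 0.27, 73.6% ± 3.84, 73.8% ± 2.13 and 51.5% ± 1.117 in the same order. The summed level was 603 ± 49.3, 601 ± 12.8, 674 ± 129 and 740 ± 16.1 CPM per kb (SD). In Doxo+Cyta it was 597, 823 and 602 in replicates 19, 20 and 22, and in Doxo+Cyta+DAC it was 719 to 756. The Doxo+Cyta+DAC libraries thus had the highest ATP5G1 shares and the lowest ATP5G2 shares of all, and the shares, which are ratios within a library, were not tested.

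**Figure D3:**
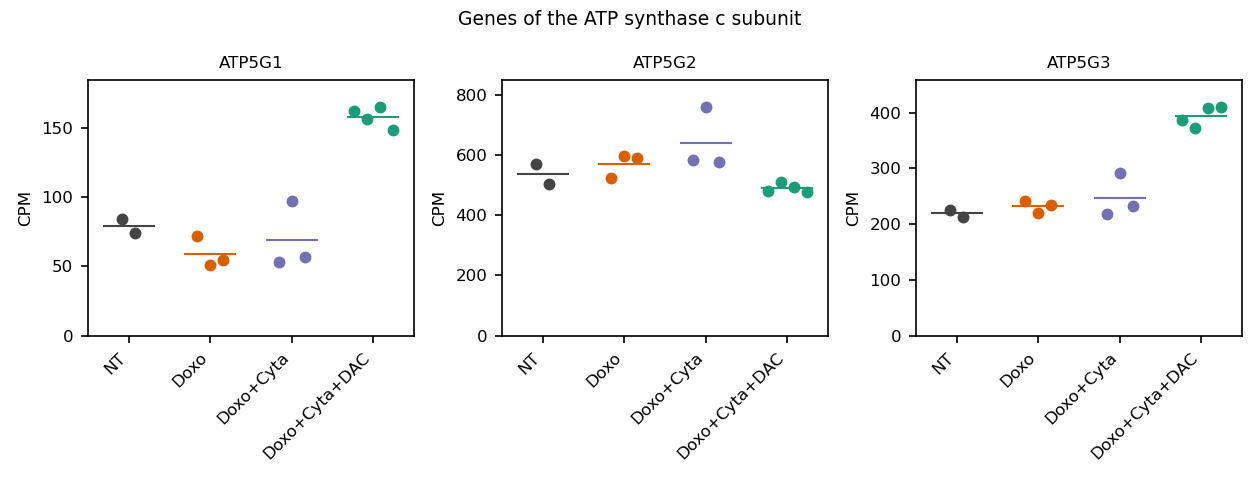
CPM (vertical axes, from 0) of the c subunit genes in each library, with lines for group means. ATP5G1 lies at 148 to 165 and ATP5G3 at 373 to 410 in Doxo+Cyta+DAC, above all other libraries, and ATP5G2 lies at 478 to 510, below the Doxo and Doxo+Cyta libraries.

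ATP5J2 (subunit f) had 43.6 and 36.6 CPM in NT, 42.1, 30.6 and 32.9 in Doxo, 35.9, 52.8 and 33.9 in Doxo+Cyta, and 77.1, 68.3, 70.7 and 65.6 in Doxo+Cyta+DAC, with no overlap between the last group and the rest. It was higher than in NT by 0.81 (SE 0.18, adjusted p of 0.00258) and changed by -1.002 in Doxo (SE 0.16) and -0.79 in Doxo+Cyta (SE 0.16). The read-through gene ATP5J2-PTCD1 covers 35.4% of its exons and had 0 counts throughout. ATP5J (subunit F6), whose exons overlap by 48.8% with GABPA, had 136 and 118 CPM in NT and 211 to 239 in Doxo+Cyta+DAC (0.80, SE 0.15, adjusted p of 0.000789). For 47 of the 85 subunit genes the GENCODE gene annotation lists pseudogenes of the same name, with which fragments may have been exchanged in alignment.

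Among NT, Doxo and Doxo+Cyta, no subunit passed the test in any pair of groups. No subunit was called in Doxo against NT by edgeR's quasi-likelihood test (10.7% of all genes called, 6.06% higher and 4.63% lower), with 4 of 77 at an unadjusted p under 0.05, 1 called by DESeq2 and a median of -0.05. None was called in Doxo+Cyta against NT (1.46% of all genes, 0.911% higher and 0.551% lower), with 7 at an unadjusted p under 0.05, 1 called by DESeq2 and a median of 0.13, or in Doxo+Cyta against Doxo (3.4% of all genes, 1.07% higher and 2.32% lower), with 8, 1 and a median of 0.17. Libraries did not overlap for 7 subunits higher and 17 lower in Doxo than in NT (24.6% and 24.5% of all genes), for 12 and 2 in Doxo+Cyta against NT (21.4% and 19.2%), and for 10 and 1 in Doxo+Cyta against Doxo (10.6% and 10.4%). The smallest adjusted p against NT in Doxo was that of ATP5A1 (0.0825), which had 738, 723 and 779 CPM against 995 and 916 (-0.36, SE 0.13). NDUFS6 followed (-0.64, SE 0.23, adjusted p of 0.0845), with NT and Doxo libraries that did not overlap.

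The count of 0 in Doxo against NT changed with a library outside both groups. Without Doxo+Cyta replicate 20, which belongs to neither group but shares in the fit and the scaling, the calls over all genes went from 1515 to 2574. Of all 14164 genes, 1287 were then higher and 1287 lower. The median of the subunits went from -0.05 to -0.08, and 10 of 77 subunits were lower in Doxo than in NT: NDUFS6 (-0.66), NDUFA3, ATP5G1 (-0.45), NDUFS8 (-0.43), ATP5A1 (-0.38), UQCRQ, NDUFA7, NDUFV1, COX6C and NDUFB6, which were named after their values were seen. NDUFS6 alone was called without Doxo replicate 4 (-0.85, adjusted p of 0.0229), where 1422 of all genes were higher and 1714 lower. Doxo replicate 4 differed from replicates 5 and 6 more than these from each other over all genes (chi-square per degree of freedom of 29.7 and 27.3 against 3.10). It was the highest of the group for 32 (41.6%) and the lowest for 31 (40.3%) of 77 subunit genes, near the 43.7% and 43.5% of all genes. Without replicate 20 the medians in Doxo+Cyta were -0.06 against NT and -0.00 against Doxo, and no subunit was called in either.

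Replicate 20 was a median of 1.43-fold (log2 0.51) above the mean of replicates 19 and 22 over the 77 subunit genes, where replicates 19 and 22 differed by a median of 0.05. It was the highest of the 3 for 34 of 36 subunits in complex I, 3 of 4 in complex II, 8 of 9 in complex III, 13 of 13 in complex IV and 15 of 15 in complex V. Compared with the range of the 4 Doxo+Cyta+DAC libraries, it lay above for 33 genes, within for 16 and below for 28, whereas replicate 19 lay below for 59 and replicate 22 for 59. The genes that lead in Doxo+Cyta+DAC, such as NDUFS6, NDUFB2, ATP5G1 and ATP5G3, were below that range in replicate 20 as well. Genes with a higher mean in Doxo+Cyta than in Doxo+Cyta+DAC, such as COX8A and NDUFB4, were above it. COX8A and NDUFB4 were above that range in replicates 19 and 22 too.

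The shift of replicate 20 moved with exon length and base composition over all genes. From the shortest to the longest quintile of exon length, its median difference from replicates 19 and 22 was 0.35, 0.19, 0.06, -0.15 and -0.34 on the log2 scale, and from the lowest to the highest quintile of exon G and C content -0.35, -0.13, 0.03, 0.21 and 0.35. Of the 77 subunit genes, 59 (76.6%) were in the shortest quintile, with a median exon length of 975 bases against 3166 for all genes. With offsets that remove each library's trend on length and G and C content, Doxo+Cyta had 57 subunits lower and 5 higher than Doxo+Cyta+DAC (median -0.42), near the result without this library. Of all 14158 genes, 4586 were lower and 4534 higher with these offsets. The medians of all genes in the shortest and the longest quintile were 0.16 and -0.11 in Doxo+Cyta against NT, 0.14 and -0.12 in Doxo+Cyta against Doxo, and 0.12 and -0.05 in Doxo+Cyta against Doxo+Cyta+DAC. In the comparisons without Doxo+Cyta libraries they were 0.02 and 0.01 in Doxo against NT, -0.02 and 0.07 in Doxo against Doxo+Cyta+DAC, and 0.04 and -0.04 in Doxo+Cyta+DAC against NT. In the last of these, 24.1% of the shortest genes were called higher, and with offsets 50 subunits were higher and 2 lower (median 0.35). Of all 14158 genes, 3989 were higher and 3743 lower with offsets in that comparison.

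**Figure D4:**
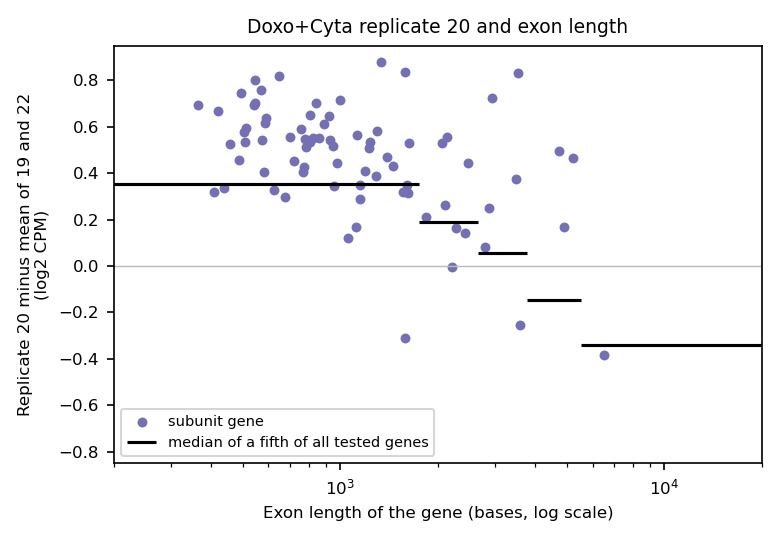
Difference of Doxo+Cyta replicate 20 from the mean of replicates 19 and 22 (log2 CPM, vertical axis) against exon length (bases, log scale) for the 77 tested subunit genes, with black lines for the medians of all tested genes by quintile of exon length. The medians fall from 0.35 in the shortest to -0.34 in the longest quintile, and the median over the subunit genes is 0.51.

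Of the 9 members that encode no subunit, 5 were tested. ATP5SL, related to complex I assembly despite its name, was lower in Doxo than in Doxo+Cyta+DAC (-0.30), and so was NDUFB2-AS1 (-0.87, adjusted p of 0.0194), which was lower in Doxo+Cyta too (-0.87). NDUFV2-AS1, with at most 15 counts, was higher in Doxo+Cyta than in Doxo+Cyta+DAC (1.06, adjusted p of 0.0164). The 12 members left out by the filter were UQCRHL, COX4I2, COX6A2, COX6B2, COX7A1, COX7B2, COX8C, ATP5L2, ATP5EP2, UQCRBP1, NDUFC2-KCTD14 and ATP5J2-PTCD1, with at most 8 counts in any library.

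Genes that are no members but build or regulate these complexes were read from lists of the same pathway. Their counts stand beside 24.9% of all genes higher and 23.7% lower in Doxo+Cyta+DAC than in NT. Relative to Doxo+Cyta+DAC, 29.1% of all genes were lower and 30.4% higher in Doxo, and 29.8% and 30.5% in Doxo+Cyta. Of 13 complex I assembly factors, 6 were higher and 0 lower in Doxo+Cyta+DAC than in NT, and 10 were lower in Doxo and 9 in Doxo+Cyta than in Doxo+Cyta+DAC. They were led by NDUFAF4 (1.36 over NT, SE 0.14, adjusted p of 7.55e-06) and ACAD9 (1.35, SE 0.24, adjusted p of 0.000408), both needed to assemble the complex. Of 21 tested complex IV assembly factors, 8 were higher and 2 lower than in NT, led by COA7 (SE 0.15, adjusted p of 4.52e-06) and COA4 (1.23) and, downward, COX18 (-0.85) and COX15 (-0.44). COA7 had 24.2 and 28.4 CPM in NT, 22.9, 16.5 and 17.6 in Doxo, 16.6, 18.0 and 18.0 in Doxo+Cyta, and 73.2, 77.0, 87.6 and 80.9 in Doxo+Cyta+DAC, which makes a log2 fold change of -2.07 for Doxo against Doxo+Cyta+DAC (SE 0.13). Replicate 20 did not stand apart for it.

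Complex II assembly factors differed from this: of 4, SDHAF4 (-1.52, SE 0.23, adjusted p of 0.000121) and SDHAF1 (-0.83) were lower than in NT and SDHAF2 (0.47) was higher, and 2 were higher in both Doxo and Doxo+Cyta than in Doxo+Cyta+DAC. SDHAF4, which helps to join SDHA to SDHB, had 7.97 and 7.74 CPM in NT, 7.39 to 8.73 in Doxo, 7.11 to 10.1 in Doxo+Cyta and 1.99 to 3.72 in Doxo+Cyta+DAC. For complex III, 1 of 6 factors was higher than in NT (BCS1L, 0.72, SE 0.24, adjusted p of 0.0249), and for complex V 2 of 4 were higher and 1 lower. Of all genes, 24.9% were higher and 23.7% lower than in NT. Subunits listed under other names, NDUFAB1 (0.83), USMG5 (0.84) and C14orf2 (0.41), were all 3 higher than in NT.

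Cytochrome c and its neighbours, the tricarboxylic acid cycle and regulators of mitochondrial biogenesis completed the pathway. CYCS, the mobile electron carrier cytochrome c, had 111 and 110 CPM in NT, 92.3 to 101 in Doxo, 71.4 to 77.9 in Doxo+Cyta and 242 to 289 in Doxo+Cyta+DAC, and was higher than in NT by 1.27 (SE 0.11, adjusted p of 2.06e-06). With the enzymes of coenzyme Q synthesis, 5 of 10 genes were higher and 2 lower than in NT, PDSS1 (1.44, SE 0.20) at the upper end and COQ6 (-0.51) and COQ5 (-0.35) at the lower. Of 14 cycle enzymes, 7 were higher, among them IDH3A (0.73), and 1 was lower, the NADP-dependent mitochondrial IDH2 (-1.24, SE 0.11, adjusted p of 3.47e-06), with 336 and 325 CPM in NT and 130 to 151 in Doxo+Cyta+DAC. Of 14 tested regulators, 8 were higher and 1 lower than in NT, 12 were lower and 0 higher in Doxo, and 11 were lower and 1 higher in Doxo+Cyta than in Doxo+Cyta+DAC. Of all genes, 24.9% were higher and 23.7% lower than in NT, and 29.1% were lower in Doxo and 29.8% in Doxo+Cyta than in Doxo+Cyta+DAC.

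Among these regulators, C10orf2 (Twinkle, the helicase of mitochondrial DNA) was higher than in NT by 1.55 (SE 0.27, adjusted p of 0.000402) and TFB2M, a mitochondrial transcription factor, by 1.38 (SE 0.15, adjusted p of 1.2e-05), while its relative TFB1M was lower (-0.66, SE 0.15, adjusted p of 0.00241). PPARGC1B, a coactivator of respiratory genes, had 16.5 and 22.2 CPM in NT, 12.1 to 13.4 in Doxo, 11.1 to 13.9 in Doxo+Cyta and 31.5 to 50.3 in Doxo+Cyta+DAC, and it was lower in Doxo than in Doxo+Cyta+DAC (-1.62, SE 0.17, adjusted p of 3.4e-06). TFAM, which packages mitochondrial DNA and was named after its value was seen, was 0.87 higher than in NT (SE 0.12, adjusted p of 6.92e-05). Of 4 tested genes of the hypoxia switch of cytochrome oxidase, 1 was higher than in NT, against 24.9% of all genes. It was the protease LONP1 (0.60, SE 0.16, adjusted p of 0.00692).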

How the data were processed

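TruSeq libraries of 12 samples were sequenced as paired 100 base reads. The authors aligned reads to GRCh38 with Bowtie2 2.2.8 after FastQC and deposited unnormalized counts of fragments for each gene, made with featureCounts 1.6.0 in its unstranded mode with chimeric fragments dropped. The other deposited value is each gene's exon length in bases. Bowtie2 does not split reads over exon junctions, so fragments across the junctions of short exons can be missed. Members and gene lists were chosen with earlier results of these data known. Counts were tested with edgeR 4.0.16 (R 4.3.3): filterByExpr, TMM scaling, 1 fit of 12 libraries with 4 group means, quasi-likelihood test, Benjamini-Hochberg adjustment over 14164 genes, call at an adjusted p under 0.05. Standard errors are the log2 fold change divided by the root of F. CPM are TMM-scaled, and log2 CPM used a prior count of 2. Floors cover counting error only. DESeq2 1.42.0, other scalings and filters, fits of the compared groups alone, a stricter threshold, leaving out each library and, added after the data were seen, offsets for exon length and G and C content were tried. The test was checked on simulated data. Named genes were, per complex and comparison, up to 2 called members with the largest change in each direction at a mean of 1 CPM or more, the complex II genes and the isoform groups, and per partner list up to 2 called genes in each direction. Other members were named after their values were seen. The labels give no batch, and no pair of libraries of a group was alike within counting noise. A few genes that the rule names are not reported here.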

Additional observations from a re-analysis of the deposited data

Results flagged for a closer look

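UQCR11, a small subunit of complex III, had 87.7 CPM in Doxo+Cyta+DAC replicate 32, against 106, 107 and 108 CPM in the other replicates of that group. The gap to the nearest replicate was 0.871 of the whole range, above Dixon's critical value at the 95% level for a group of 4. Chance marks about 1 in 20 such groups. In all, 27 were screened and 1 was flagged.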

How the results depend on the processing

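No paired analysis was possible because the groups share no replicate numbers. The number of members called in Doxo+Cyta+DAC against NT, 41, was 22 at an adjusted p under 0.01 and 10 to 54 when single libraries were left out (25 without NT replicate 1, 10 without NT replicate 2). The number in Doxo against NT, 0, was 2 with total-count scaling, 1 with DESeq2, 1 with no filter on low counts, 1 with only the groups compared, 6 with offsets for exon length and G and C content, and 0 to 10 when single libraries were left out. In Doxo+Cyta against NT, 0 became 1 with DESeq2 and 3 with these offsets, and against Doxo it became 1 with DESeq2 and 1 with the offsets. Calls over all genes changed too. In Doxo against NT they were 1515 in the main test, 1728 with total-count scaling, 2151 with DESeq2 and 2551 with the offsets. They were 1638 with no filter and 1638 with only the groups compared. In Doxo+Cyta against NT they were 207, 835 with DESeq2 and 277 with the offsets, and against Doxo 481, 933 and 664. In Doxo+Cyta+DAC against NT they were 6893, and 4813 at an adjusted p under 0.01.

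Total-count scaling moved the median of all genes in Doxo against NT to -0.11, with 560 higher and 1168 lower calls against 859 and 656, and the complex medians there to -0.19 (I), -0.17 (II), -0.11 (III) and -0.15 (V). The split of all calls in Doxo+Cyta against NT, 129 higher and 78 lower, was 48 and 89 with it, and that in Doxo+Cyta against Doxo, 152 and 329, was 205 and 249 with upper-quartile scaling. In Doxo against Doxo+Cyta+DAC the complex V median was -0.44 with upper-quartile scaling and -0.40 with the offsets, and in Doxo+Cyta against Doxo+Cyta+DAC that of complex II was -0.083 with upper-quartile scaling. Leaving out single libraries gave medians of 0.25 to 0.46 for complex III in Doxo+Cyta+DAC against NT. In Doxo against NT they ran from -0.16 to 0.076 for complex II, -0.12 to 0.087 for complex IV and -0.097 to 0.082 for complex V. For complex II they ran from -0.029 to 0.20 in Doxo+Cyta against NT, -0.23 to -0.10 against Doxo+Cyta+DAC and 0.036 to 0.12 against Doxo.

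The sign of SDHA against NT turned to -0.056 with upper-quartile scaling, -0.072 with total-count scaling, -0.012 with no filter, -0.012 with at least 10 counts in every sample and -0.0081 with the offsets, and leaving out single libraries it ran from -0.044 to 0.10, and that of SDHD to -0.017 with upper-quartile and -0.034 with total-count scaling. No call changed direction. The causes of these changes were not tested. Over all alternatives, 863 values of named genes kept direction and side of the threshold, 52 lost a call and 1 gained one, SDHC against NT with only the groups compared (0.23, adjusted p = 0.0369). With 2 NT libraries, differences from NT are the least precise.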
